A study of Mus musculus with 20 samples.

Results

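The livers of mice given 6 mg/kg per day of Nafion byproduct 2 were set against those given 3 mg/kg per day, to see which transcript responses went on growing over the last doubling of the dose and which had levelled off. The libraries were chosen by the dose in their labels alone, 4 at 6 mg/kg and 4 at 3 mg/kg, which makes 8 of the 20 libraries of the study. All came from male Balb-C mice of 10 to 12 weeks that received the compound by gavage once a day for 7 days, 1 mouse per library. The compound, a fluorinated ether sulfonic acid, is a by-product of making a fluoropolymer membrane. A control group of 4 mice, dosed at 0 mg/kg, served to tell which genes responded at all. The protocols give deionized water as what the controls received, whereas the control titles read DMSO, so the vehicle is not settled here. Groups of 4 mice at 0.03 and 0.3 mg/kg entered the count filter, the scaling and the estimate of spread, and no comparison. The labels name no engineered allele in any group.

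The liver senses foreign and fatty acid-like compounds through nuclear receptors. CAR and PXR switch on enzymes that oxidize and conjugate drugs, PPARα switches on the burning of fatty acids in peroxisomes and mitochondria, and NRF2 switches on defences against electrophiles. Activators of CAR and PPARα are also known in rodents for enlarging the liver and driving resting hepatocytes into the cell cycle.

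Expression was read with TempO-Seq, in which pairs of short detector oligonucleotides that lie side by side on an RNA are joined, amplified and sequenced. Library totals were 8173468 to 8477663 counts at 6 mg/kg, 6823518 to 9177664 at 3 mg/kg and 7123004 to 9890662 in controls. At these depths 3 counts correspond to 0.299 to 0.365 counts per 1000000 (CPM) at 6 mg/kg and to 0.285 to 0.510 CPM at 3 mg/kg. Values in CPM below are scaled by TMM factors and are listed for replicates 1 to 4 in that order, and the numbers name a library without pairing any. In each group replicate 4 stood apart from the other 3 libraries on log2(CPM + 1). Its mean correlation with its group was 0.949 for 6 mg/kg replicate 4, against 0.973 to 0.976 for the others, and 0.892 for 3 mg/kg replicate 4, against 0.954 to 0.956. Libraries of the control, 0.03 and 0.3 mg/kg groups lay higher, at 0.981 to 0.983, 0.981 to 0.987 and 0.982 to 0.989. The median SD of a probe was 0.30 at 6 mg/kg, 0.32 at 3 mg/kg and 0.23 in controls. The shared estimate of spread, on which standard errors, intervals and calls rest, thus includes groups tighter than those compared. Probes for major urinary proteins took 2.96% to 12.3% of the counts at 6 mg/kg and 10.2% to 24.0% at 3 mg/kg. All 8 libraries sat in plate row B, at 6 mg/kg in columns 7 to 10 and at 3 mg/kg in columns 3 to 6, so plate column and dose cannot be told apart within the comparison. Controls sat in row A. The labelled tissue was borne out by hepatocyte markers, whose summed level was 16513 to 19185 CPM at 6 mg/kg, 22949.8 to 25741 CPM at 3 mg/kg and 24624 to 28694 CPM in controls.

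Between the top doses, genes that rose included a cytochrome of fatty acid oxidation, acyl-CoA thioesterases, glutathione transferases and a growth-arrest gene, and genes that fell included secreted and male-biased liver proteins. Of 14122 probes tested, 559 were higher and 391 lower at 6 mg/kg than at 3 mg/kg, 3.96% and 2.77% of the probes and together 6.73% (edgeR quasi-likelihood test, Benjamini-Hochberg adjusted p under 0.05). With each gene represented by its probe of highest mean count, 381 of 10097 genes rose (3.77%) and 322 fell (3.19%), together 6.96% of the genes. The median log2 difference was 1.05 among the genes that rose and -0.77 among those that fell, and it was 0.01 over all genes. At least 2-fold differences were found in 201 risers and 101 fallers. The 4 libraries at 6 mg/kg did not overlap those at 3 mg/kg in 310 of the risers and 245 of the fallers. Over all genes tested, whether called or not, such separation was seen upward in 5.74% and downward in 5.81%.

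How many genes passed depended on single libraries. Without 3 mg/kg replicate 4 the test called 1662 probes higher and 1443 lower. Without 3 mg/kg replicate 1 it called 190 and 112, and without 3 mg/kg replicate 2 it called 282 and 126. The counts were 328 and 175 without 6 mg/kg replicate 2, 408 and 201 without 6 mg/kg replicate 3, and 349 and 252 without 6 mg/kg replicate 4. In all 12 fits that left out 1 library of the control, 3 or 6 mg/kg groups, 117 of the risers and 73 of the fallers were called, 190 genes in all. The called genes described below belong to these 190 unless a left-out library is named beside them. With plate column in the model, 57 probes were called higher and 18 lower. A fit restricted to the 8 libraries called 10 probes higher and 1 lower, of Cyp4a14, Acot2, Gadd45b, Gm3776, Nrg1 (2 probes), Tc2n, Mab21l3, Serpinb1c and 2010003K11Rik upward and of C8a downward.

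**Figure D1:**
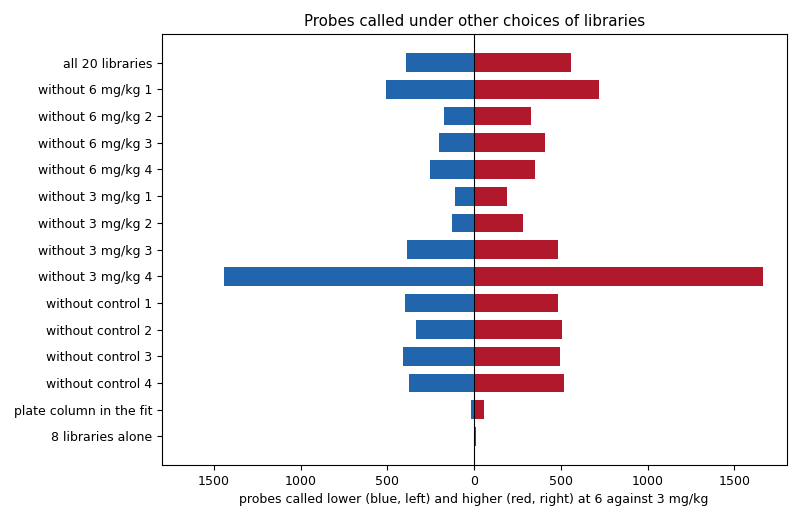
Number of probes called higher (red, to the right) and lower (blue, to the left) at 6 against 3 mg/kg with all 20 libraries, with each library of the 6, 3 and 0 mg/kg groups left out, with plate column in the model and with the 8 libraries alone. The longest bars, 1662 higher and 1443 lower, are those without 3 mg/kg replicate 4, and the shortest, 10 higher and 1 lower, are those of the 8 libraries alone.

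Targets of PPARα were called higher in part. Of 58 listed PPARα targets tested, 25 rose and 1 fell (44.8% called, against 6.96% of all genes). Their median log2 difference was 0.58 against 0.01 for all genes, and 11 of the rises were called in all 12 fits. Cyp4a14, an omega-hydroxylase of fatty acids (GRCm38 chr4:115486200-115496142), read 76.4, 109, 111 and 159 CPM at 6 mg/kg, against 3.59, 4.95, 7.14 and 4.28 CPM at 3 mg/kg. Every liver at 6 mg/kg lay at least 10 times above every liver at 3 mg/kg, and controls lay at 0.13 to 2.99 CPM. The log2 difference was 4.53 (SE 0.41, adjusted p = 2.2e-05), a 23.0-fold higher level at 6 mg/kg. Acot2, a mitochondrial acyl-CoA thioesterase (chr12:83987861-83993873), read 10.5, 24.2, 26.3 and 18.5 CPM at 6 mg/kg and 1.38, 2.25, 3.40 and 4.09 CPM at 3 mg/kg, with a log2 difference of 2.82 (SE 0.29, adjusted p = 2.2e-05). The 3 mg/kg livers overlapped the controls, which read 1.30 to 1.96 CPM, and all 6 mg/kg livers were above both groups.

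Ehhadh, the bifunctional enzyme of peroxisomal beta-oxidation (chr16:21761287-21787807), read 1063, 1531, 1562 and 1496 CPM at 6 mg/kg and 319, 453, 585 and 563 CPM at 3 mg/kg. These groups did not overlap, and the log2 difference was 1.56 (SE 0.18, adjusted p = 0.000105). Its 3 mg/kg level was also above control, by 0.77 on the log2 scale, so that the second step was larger than the first, although the difference of the steps was not called (log2 0.79, SE 0.32, adjusted p = 0.496). The cytosolic thioesterase Acot1 and the peroxisomal thioesterase Acot3 rose by 1.54 (SE 0.29, adjusted p = 0.00428) and 1.71 (SE 0.30, adjusted p = 0.00322) on the log2 scale, and Eci1, a mitochondrial enoyl-CoA isomerase, by 0.70 (SE 0.13, adjusted p = 0.00441). A second Acot3 probe gave -0.75 and was not called (adjusted p = 0.562). Probes of the Acot and Cyp4a families lie in near-identical copies, and reads could be shared between copies. Cyp4a10, a close relative of Cyp4a14, read 262, 441, 381 and 224 CPM at 6 mg/kg and 47.4, 80.8, 137 and 4.95 CPM at 3 mg/kg. Although these groups did not overlap, its log2 difference of 2.28 (SE 0.65, adjusted p = 0.0516) missed the threshold, and a second Cyp4a10 probe was called at 2.71 (adjusted p = 0.00677). Without 3 mg/kg replicate 4, the library at 4.95 CPM, the first probe was called (1.91, adjusted p = 0.0249), as it was without 3 mg/kg replicate 3 (2.88, adjusted p = 0.0325) and without control replicate 4 (2.30, adjusted p = 0.0435).

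Not every gene of fatty acid oxidation behaved in this way. Cpt1a, which admits fatty acids to mitochondria, lay at 1.68 to 3.29 CPM at 6 mg/kg and 1.35 to 3.71 CPM at 3 mg/kg, and its log2 difference of 0.04 had an interval of -0.63 to 0.72. Pdk4, a kinase that spares glucose, differed by 1.61 (SE 0.49, adjusted p = 0.0551) without overlap between the groups, and was called without 3 mg/kg replicate 4 (1.92, adjusted p = 0.0161) and without 6 mg/kg replicate 1 (1.80, adjusted p = 0.0365). Over whole lists, 9 of 33 genes of mitochondrial oxidation rose and 1 fell (30.3% called), and 8 of 43 peroxisomal genes rose and 1 fell (20.9% called). Of all genes, 6.96% were called. In the other direction Ppargc1a, a coactivator of oxidative genes, fell to 3.83, 4.25, 3.78 and 1.70 CPM at 6 mg/kg, against 8.84, 8.998, 9.69 and 7.33 CPM at 3 mg/kg, with no overlap and a log2 difference of -1.36 (SE 0.26, adjusted p = 0.00392). The receptor gene itself, Ppara, read 107, 91.2, 96.3 and 89.6 CPM at 6 mg/kg and 146, 139.9, 107 and 224 CPM at 3 mg/kg. It was called lower (-0.68, SE 0.17, adjusted p = 0.0212), but not without 3 mg/kg replicate 1 (-0.74, adjusted p = 0.0507), 6 mg/kg replicate 2 (-0.66, adjusted p = 0.0608) or 6 mg/kg replicate 3 (-0.68, adjusted p = 0.0555). The other Ppara probes gave -0.42 and -0.48 and were not called.

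**Figure D2:**
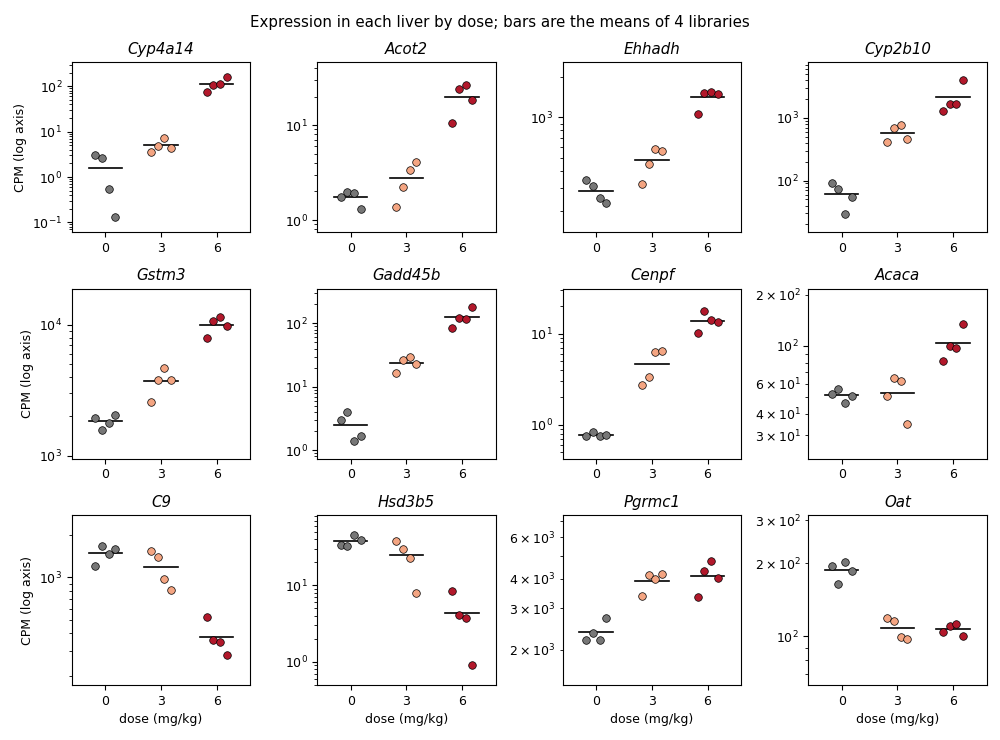
Level in CPM (log axis) of 12 genes in each liver at 0, 3 and 6 mg/kg, 1 point per mouse, with the mean of the 4 as a bar. The first 8 genes were higher at 6 mg/kg than at 3 mg/kg, C9 and Hsd3b5 were lower, and Pgrmc1 and Oat lay at the same height at 3 and 6 mg/kg, away from the controls.

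Enzymes of drug metabolism that CAR and PXR control were also among the risers. Of 54 listed targets, 27 rose and 0 fell (50% called, against 6.96% of all genes). The median log2 difference was 0.90, and 15 of the rises were called in all 12 fits. Cyp2b10, the classical CAR target (chr7:25897620-25926624), read 1301, 1639, 1658 and 3980.2 CPM at 6 mg/kg, against 409, 681, 766 and 463 CPM at 3 mg/kg and 28.8 to 90.5 CPM in controls. None of the 3 groups overlapped, and 6 mg/kg replicate 4 was the highest library by far. The log2 difference between the top doses was 1.89 (SE 0.38, adjusted p = 0.00934), set on a rise of 3.22 already present at 3 mg/kg. A second Cyp2b10 probe gave 1.44 (SE 0.54, adjusted p = 0.123) and was not called. Aldh1a7, an aldehyde dehydrogenase, read 285, 315, 325 and 258 CPM at 6 mg/kg and 90.4, 124, 158 and 145 CPM at 3 mg/kg, with a log2 difference of 1.19 (SE 0.15, adjusted p = 0.00019). Its groups did not overlap and its spread was small.

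Ces2b, a carboxylesterase, rose by 2.21 (SE 0.32, adjusted p = 0.00105) and Ugt2b34, a glucuronosyltransferase, by 1.78 (SE 0.34, adjusted p = 0.00596), the second with 6 mg/kg replicate 4 at 1686 CPM beside 387 to 443 CPM in the other 3, and with a log2 difference of 0.94 without that library, still called. Abcc2, the canalicular export pump for conjugates, rose by 1.06 (SE 0.21, adjusted p = 0.00532) with overlapping groups, while its other 2 probes gave 0.27 and -0.02 and were not called. Por, which passes electrons to the P450 enzymes, read 148, 295, 301 and 78.4 CPM at 6 mg/kg and 54.7, 71.7, 121 and 98.4 CPM at 3 mg/kg. Its log2 difference of 1.251 (SE 0.32, adjusted p = 0.0281) was not called without 3 mg/kg replicate 1 (1.06, adjusted p = 0.108), 3 mg/kg replicate 2 (1.17, adjusted p = 0.0927), 6 mg/kg replicate 2 (1.02, adjusted p = 0.0906) or 6 mg/kg replicate 3 (1.02, adjusted p = 0.0855). Another Por probe was called at 1.85 (adjusted p = 0.00361), and a further one gave 0.91 and was not called. Cyp2c55 read 623, 796, 757 and 1699 CPM at 6 mg/kg and 191, 416, 526 and 34.7 CPM at 3 mg/kg, and its difference of 1.73 (SE 0.56, adjusted p = 0.0759) missed the threshold although the groups did not overlap. It was called without 3 mg/kg replicate 4 (1.38, adjusted p = 0.0409), the library at 34.7 CPM, and without 3 mg/kg replicate 3 (2.17, adjusted p = 0.048). Cyp3a11, the main PXR target, read 1281, 1553, 1052 and 542 CPM at 6 mg/kg and 1192, 1385, 2226 and 95.2 CPM at 3 mg/kg. The libraries were mixed, 3 mg/kg replicate 4 was far below the rest, and the log2 difference of -0.15 had an interval of -1.27 to 0.98. The gene of CAR itself, Nr1i3, differed by -0.36 (SE 0.21, adjusted p = 0.319) with overlapping groups.

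The NRF2 list gave one of the highest shares of calls. Of its 40 members tested, 21 rose and none fell (52.5% called, against 6.96% of all genes). The median was 0.73, and 13 rises were called in all 12 fits. Gstm3, a glutathione transferase (chr3:107963696-107969283), was among the most abundant risers, with 8001, 10788, 11400.0 and 9878 CPM at 6 mg/kg and 2559, 3828, 4715 and 3780.3 CPM at 3 mg/kg. The groups did not overlap and the log2 difference was 1.43 (SE 0.16, adjusted p = 7.4e-05). Its neighbour in the family Gstm2 rose by 2.27 (SE 0.34, adjusted p = 0.00146) and Gm3776, a predicted gene that is on no list used here, by 2.21 (SE 0.31, adjusted p = 0.000651). Nqo1, a quinone reductase and a standard NRF2 reporter (chr8:107388225-107403206), read 12.9, 22.4, 18.9 and 22.7 CPM at 6 mg/kg and 6.77, 7.42, 7.31 and 8.47 CPM at 3 mg/kg, without overlap, with a log2 difference of 1.35 (SE 0.19, adjusted p = 0.000406). Ugdh, which makes the sugar donor for glucuronidation, rose by 1.16 (SE 0.17, adjusted p = 0.000762), and Ephx1, the microsomal epoxide hydrolase, by 1.47 (SE 0.24, adjusted p = 0.00141). The largest log2 difference of the list was that of Gsta1, at 2.72 (SE 0.56, adjusted p = 0.012). It read 1608, 1804, 1615 and 1381 CPM at 6 mg/kg and 175, 324, 463 and 13.7 CPM at 3 mg/kg, where the fourth library lay below the controls of 20.0 to 28.4 CPM, and it was not called without 3 mg/kg replicate 1 (2.59, adjusted p = 0.0542). The CAR, PXR and NRF2 lists share members such as Gstm3 and Gsta1, and transferase probes may share reads between near-identical genes.

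Genes of cell division made the list with the highest median. Of 40 mitosis genes tested, 22 rose and none fell (55% called, against 6.96% of all genes). Among the 40, 39 had a positive log2 difference, the median was 1.41, and 8 rises were called in all 12 fits. Most were scarce. Cenpf, a protein of the kinetochore (chr1:189640606-189688086), read 10.2, 17.6, 13.9 and 13.5 CPM at 6 mg/kg, against 2.76, 3.37, 6.29 and 6.37 CPM at 3 mg/kg and 0.748 to 0.84 CPM in controls. The 3 groups were separate, with a log2 difference of 1.55 (SE 0.24, adjusted p = 0.00105) between the top doses. The kinetochore motor Cenpe rose by 1.85 (SE 0.27, adjusted p = 0.000617) and the cytokinesis motor Kif20a by 1.62 (SE 0.26, adjusted p = 0.00149). For both, 3 mg/kg against control was called as well, as it was for 1.54% of all genes, at 2.15 and 2.52. The proliferation marker Mki67 read 4.19, 4.98, 3.66 and 4.39 CPM at 6 mg/kg and 1.52, 1.800, 1.87 and 0.19 CPM at 3 mg/kg. It was called (1.73, SE 0.46, adjusted p = 0.0276) with all libraries but not without 3 mg/kg replicate 1 (1.79, adjusted p = 0.072), 3 mg/kg replicate 2 (1.95, adjusted p = 0.0522), 6 mg/kg replicate 2 (1.64, adjusted p = 0.0734) or 6 mg/kg replicate 4 (1.69, adjusted p = 0.0568). Cdk1, the kinase that starts mitosis, read 5.27, 6.32, 5.67 and 4.59 CPM at 6 mg/kg and 1.24, 2.36, 3.23 and 3.04 CPM at 3 mg/kg. Its difference of 1.14 (SE 0.38, adjusted p = 0.0746) missed the threshold without overlap of the groups, and it was called without 3 mg/kg replicate 4 (1.29, adjusted p = 0.0283).

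Promoters of mitosis genes carry a pair of short elements in textbook accounts, the cell cycle homology region (CHR), read by the MuvB complexes, and the CCAAT box, read by NF-Y. RefSeq promoters (GRCm38.p6, 300 bases each) were at hand for 17 of the 22 mitosis genes that rose, 19 promoters in all. TTTGAA or TTCGAA, the letters used for the CHR, stood on either strand in 17 of the 19, against 19.2% of all 32851 promoters. CCAAT stood on either strand in 16 of the 19, against 37.4% of all promoters. Among the 14 promoters of mitosis genes that were not called, 9 held the CHR letters and 9 the CCAAT letters. The 4 windows below belong to the mitosis genes described above and show how the elements are placed; capitals mark CHR and CCAAT letters on either strand, where CCAAT on the other strand reads ATTGG. The motifs do not overlap each other in these windows. The first 3 windows hold both elements and the window of Cenpe holds CCAAT alone.
Cenpf: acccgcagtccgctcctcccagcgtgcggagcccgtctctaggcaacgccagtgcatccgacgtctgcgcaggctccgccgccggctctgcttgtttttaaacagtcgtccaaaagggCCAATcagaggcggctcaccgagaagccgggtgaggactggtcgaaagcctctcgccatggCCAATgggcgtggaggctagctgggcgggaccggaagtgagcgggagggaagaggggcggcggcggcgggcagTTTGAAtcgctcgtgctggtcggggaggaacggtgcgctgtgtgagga
Mki67: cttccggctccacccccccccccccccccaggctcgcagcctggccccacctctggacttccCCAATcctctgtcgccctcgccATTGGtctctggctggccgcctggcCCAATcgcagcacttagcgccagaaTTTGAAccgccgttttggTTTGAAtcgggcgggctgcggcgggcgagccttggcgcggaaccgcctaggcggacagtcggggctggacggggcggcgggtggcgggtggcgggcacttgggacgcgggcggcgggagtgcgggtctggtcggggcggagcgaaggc
Cdk1: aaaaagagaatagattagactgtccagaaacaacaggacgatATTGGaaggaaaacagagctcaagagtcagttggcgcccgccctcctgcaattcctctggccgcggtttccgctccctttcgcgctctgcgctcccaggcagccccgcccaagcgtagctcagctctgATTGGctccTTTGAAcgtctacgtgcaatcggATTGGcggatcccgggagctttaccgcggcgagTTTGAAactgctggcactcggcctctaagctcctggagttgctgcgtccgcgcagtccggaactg
Cenpe: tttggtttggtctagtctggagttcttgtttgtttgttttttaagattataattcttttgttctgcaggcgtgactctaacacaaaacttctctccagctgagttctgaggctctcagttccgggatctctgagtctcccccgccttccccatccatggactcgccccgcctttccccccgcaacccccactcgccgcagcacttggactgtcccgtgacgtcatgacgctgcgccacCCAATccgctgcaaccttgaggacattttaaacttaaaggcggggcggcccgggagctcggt
The windows lie at chr1:189688037-189688336 on the minus strand (Cenpf), chr7:135716330-135716629 minus (Mki67), chr10:69352863-69353162 minus (Cdk1) and chr3:135212313-135212612 plus (Cenpe), and each is printed 5′ to 3′ along its gene. A match shows only that the letters are present.

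Among genes that copy DNA, 8 of 33 rose and none fell (24.2% called, against 6.96% of all genes). The median was 0.38, and none was called in all 12 fits. Mcm6, a subunit of the replicative helicase, read 33.9, 49.0, 43.7 and 46.6 CPM at 6 mg/kg, against 16.2, 29.4, 37.6 and 32.5 CPM at 3 mg/kg and 3.12 to 5.57 CPM in controls. Most of its response was there at 3 mg/kg (2.67 on the log2 scale), and the further difference of 0.58 (SE 0.23, adjusted p = 0.136) was not called with all libraries, though it was without 3 mg/kg replicate 4 (0.67, adjusted p = 0.0498). Mcm2, of the same helicase, was called at 1.21 (SE 0.28, adjusted p = 0.0124) but not without 3 mg/kg replicate 1 (0.99, adjusted p = 0.0649), and its second probe gave 0.18. Gadd45b, a growth-arrest and stress gene that CAR also induces (chr10:80930073-80932204), read 83.1, 122, 117 and 184 CPM at 6 mg/kg, against 16.4, 26.5, 29.1 and 22.5 CPM at 3 mg/kg and 1.399 to 4.06 CPM in controls. Its 3 groups were widely separate, with 2.42 (SE 0.30, adjusted p = 0.000194) between the top doses. Of 17 p53 targets, 3 rose (17.6% called), among them Trp53inp1 (0.86, SE 0.15, adjusted p = 0.00301) and Ephx1, which also stands on the NRF2 list. Cdkn1a, the p21 inhibitor of the cell cycle, read 1.92, 2.92, 3.66 and 3.69 CPM at 6 mg/kg and 0.414, 0.225, 1.36 and 1.81 CPM at 3 mg/kg. It differed by 1.65 (SE 0.53, adjusted p = 0.0583) and was called without 3 mg/kg replicate 4 (2.31, adjusted p = 0.00707) and without 6 mg/kg replicate 1 (1.82, adjusted p = 0.0439).

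**Figure D3:**
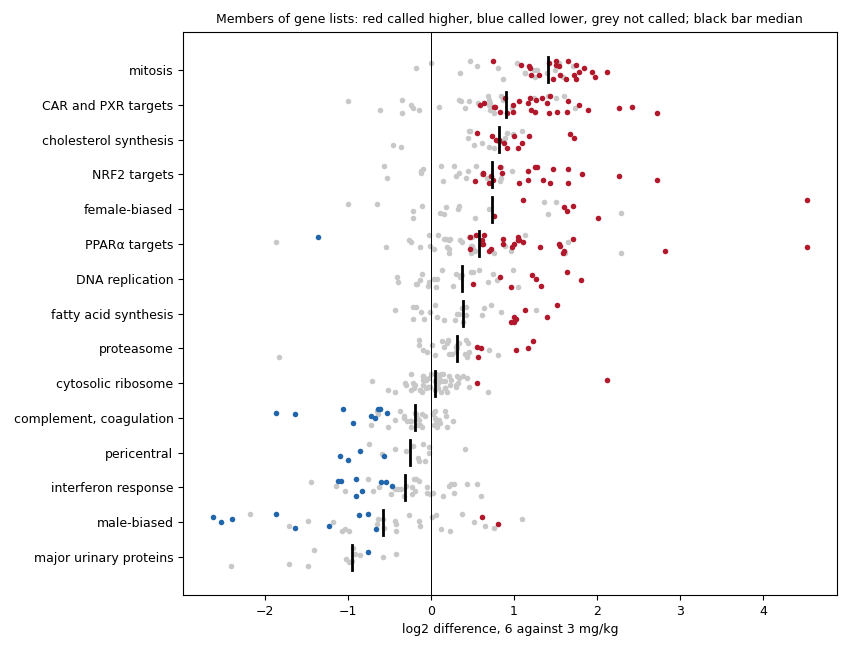
Log2 difference of 6 against 3 mg/kg for the tested members of 15 gene lists, 1 point per gene, with the list's median as a black bar; red points were called higher, blue ones lower and grey ones not called. Mitosis genes have the highest median (1.41) and major urinary proteins the lowest (-0.95).

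Transcripts of sterol and fatty acid synthesis were called higher in part. In the cholesterol pathway 13 of 27 genes rose and none fell (48.1% called, against 6.96% of all genes). The median was 0.82, and 2 of the rises were called in all 12 fits. Acat2, the thiolase at the head of the pathway, read 279, 297, 291 and 557 CPM at 6 mg/kg and 172, 176, 184 and 222 CPM at 3 mg/kg, without overlap. Its log2 difference was 0.92 (SE 0.18, adjusted p = 0.00559), while its 3 mg/kg livers differed from control by -0.17. Fdft1, the squalene synthase, was called at 0.55 (SE 0.14, adjusted p = 0.0194), but not without 3 mg/kg replicate 1 (0.46, adjusted p = 0.0972) or 6 mg/kg replicate 3 (0.52, adjusted p = 0.0527). A second Fdft1 probe was called at 0.84 (adjusted p = 0.00434). Hmgcs1 differed by 0.84 (SE 0.26, adjusted p = 0.0589); replicate 4 at 6 mg/kg read 207 CPM beside 470 to 680 CPM in the other 3, and it was called without that library (1.07, adjusted p = 0.00363) and without 3 mg/kg replicate 4 (0.81, adjusted p = 0.0482).

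Among 29 genes of fatty acid synthesis, 7 rose and none fell (24.1% called, against 6.96% of all genes), with a median of 0.38. Without both replicates 4, 13 rose and 1 fell. Acaca, the acetyl-CoA carboxylase, read 81.4, 100.3, 97.6 and 135 CPM at 6 mg/kg and 50.8, 65.2, 62.4 and 35.0 CPM at 3 mg/kg, with a log2 difference of 0.96 (SE 0.17, adjusted p = 0.00329). The elongase Elovl6 rose by 1.004 (SE 0.18, adjusted p = 0.00349). The groups of both genes were separate. The synthase Fasn and the desaturase Scd1 had larger estimates, 1.52 (SE 0.38, adjusted p = 0.0253) and 1.39 (SE 0.35, adjusted p = 0.0254), but wider spread, and 3 mg/kg replicate 4 lay inside the 6 mg/kg range of both. Neither was called without any single one of the other 3 libraries at 3 mg/kg or of replicates 2, 3 and 4 at 6 mg/kg, with adjusted p-values between 0.0513 and 0.104, and without 3 mg/kg replicate 4 the difference of Fasn was 2.33. A second Fasn probe gave 1.10 (adjusted p = 0.126) and was not called. Srebf1, the gene of a transcription factor that drives these enzymes, was too scarce to be tested, at 0.59 to 2.49 CPM at 6 mg/kg and 0.225 to 2.76 CPM at 3 mg/kg. Of 17 genes of lipid droplets and fat uptake, 5 rose (29.4% called). They included Vldlr (2.36, SE 0.54, adjusted p = 0.0102), the receptor for very-low-density lipoprotein, whose controls reached from 0 to 1.61 CPM. Plin2, the main coat protein of droplets, was called at 0.64 (SE 0.15, adjusted p = 0.0127) with separate groups, but not without 3 mg/kg replicate 1 (0.55, adjusted p = 0.0708), and its other 2 probes gave 1.16 (called) and -0.03.

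Bile acid enzymes did not move together. Cyp7a1, which sets the rate of bile acid synthesis, read 116, 47.3, 28.8 and 63.9 CPM at 6 mg/kg, against 20.7, 15.9, 13.8 and 348 CPM at 3 mg/kg and 4.52 to 10.6 CPM in controls. Of the 3 mg/kg livers 3 lay below all the 6 mg/kg livers and the fourth lay above them all. The log2 difference of -0.64 (SE 0.75, adjusted p = 0.66) turned round to 1.94, adjusted p = 0.00242, when 3 mg/kg replicate 4 was left out. Cyp8b1, which makes cholic acid, differed by 0.59 (SE 0.24, adjusted p = 0.149) and was called without the same library (0.97, adjusted p = 0.00237). Over the list, 3 of 32 rose and 2 fell (15.6% called, against 6.96% of all genes).

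Some transcripts of protein turnover and folding rose. Of 33 proteasome subunits, 6 rose and none fell, and without both replicates 4 12 rose. Psmd1, a scaffold of the regulatory particle, read 133, 171, 176 and 284 CPM at 6 mg/kg and 84.5, 95.8, 94.6 and 99.6 CPM at 3 mg/kg. The livers at 3 mg/kg were at the level of controls (85.9 to 96.6 CPM), those at 6 mg/kg were all above, and the log2 difference was 1.03 (SE 0.16, adjusted p = 0.00126). Hsp90aa1, the inducible cytosolic HSP90, rose by 1.21 (SE 0.25, adjusted p = 0.00853) on the probe of highest count, with its other 2 at 1.73 (called) and -0.09, as 1 of 4 among 26 heat shock genes. None of 25 genes of endoplasmic reticulum stress was called, 2 of 55 cytosolic ribosome genes rose (3.64%), and 1 of 48 genes of oxidative phosphorylation fell (2.08%). Of all genes, 3.77% rose and 3.19% fell.

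The genes that fell included secreted proteins of hepatocytes. The summed hepatocyte markers given above were lower at 6 mg/kg than at 3 mg/kg without overlap, of their 11 tested markers 1 rose and 1 fell, and their part in the falls was not tested. In whole liver, fewer cells of a type and less RNA per cell cannot be told apart. Of 46 complement and coagulation genes, 9 fell (3.19% of all genes fell) and none rose, with 4 called in all 12 fits, and without both replicates 4 16 fell. C9, a component of the membrane attack complex (chr15:6445327-6498751), fell to 525, 357, 349 and 282 CPM at 6 mg/kg, against 1522, 1398, 979 and 813 CPM at 3 mg/kg. All 4 were below all the livers at 3 mg/kg, which overlapped the controls of 1197 to 1674 CPM, and the log2 difference was -1.64 (SE 0.21, adjusted p = 0.000201). Its other 3 probes gave -2.21 (adjusted p = 0.00149), -2.49 (adjusted p = 0.00371) and -1.91 (adjusted p = 0.0829). C1s1, a protease of the classical pathway, fell by 0.64 (SE 0.12, adjusted p = 0.00395) on the log2 scale, and its other 2 probes gave -0.29 and -0.27 and were not called. C8a had a large estimate (-1.87, SE 0.49, adjusted p = 0.0332), but a second probe of it gave a difference of -0.00 with an interval of -0.35 to 0.34, its controls ran from 183 to 601 CPM, and its call ended without 3 mg/kg replicates 1 (-1.74, adjusted p = 0.0973) or 2 (-1.73, adjusted p = 0.0927) or 6 mg/kg replicates 2 (-1.88, adjusted p = 0.0783), 3 (-1.81, adjusted p = 0.0816) or 4 (-1.87, adjusted p = 0.0896).

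Other secreted proteins fell singly. Ang, angiogenin, fell to 776, 453, 439 and 395 CPM at 6 mg/kg, against 1700.0, 1631, 1205 and 1245 CPM at 3 mg/kg, with a log2 difference of -1.49 (SE 0.20, adjusted p = 0.000283) and no overlap. On the log2 scale Ahsg, fetuin A, fell by 0.76 (SE 0.16, adjusted p = 0.00713). Igf1, the circulating growth factor, fell by 0.66 (SE 0.13, adjusted p = 0.00488), and Itih3, a chain of the inter-alpha inhibitors, fell by 0.93 (SE 0.16, adjusted p = 0.00221). Gm10681, a predicted gene, fell to 428, 129, 108 and 115 CPM at 6 mg/kg, against 1244, 1127, 779 and 923 CPM at 3 mg/kg (-2.39, SE 0.31, adjusted p = 0.00043), and without 6 mg/kg replicate 1, its highest library of that dose, the difference was -3.12. Alb, albumin, read 6664, 7509, 7394 and 2615 CPM at 6 mg/kg and 10387, 9190.4, 10776 and 7248 CPM at 3 mg/kg. Of the 6 mg/kg livers 3 lay close together and the fourth was far below, the difference of -0.64 (SE 0.24, adjusted p = 0.114) missed the threshold, and it was called without 3 mg/kg replicate 4 (-0.73, adjusted p = 0.0346). Of 43 plasma proteins, 3 fell and 2 rose (11.6% called, against 6.96% of all genes), among them Apoa4 (0.65, SE 0.15, adjusted p = 0.0112), an apolipoprotein of fat transport. Acute-phase genes went both ways, with 3 of 24 called higher and 2 lower. Crp, C-reactive protein, rose by 1.16 (SE 0.23, adjusted p = 0.00676). Orm2, an orosomucoid, rose by 1.54 (SE 0.33, adjusted p = 0.0112), a call that ended without 3 mg/kg replicate 1 (1.33, adjusted p = 0.0547). Hamp, hepcidin, fell by 1.77 (SE 0.42, adjusted p = 0.0198), a call that ended without 3 mg/kg replicate 1 (-1.64, adjusted p = 0.0695), 6 mg/kg replicate 2 (-1.66, adjusted p = 0.0627) or 6 mg/kg replicate 3 (-1.60, adjusted p = 0.0622). Without 6 mg/kg replicate 1 the Hamp difference was -2.55.

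Genes known to be higher in male mouse liver fell more often than they rose, and those higher in female liver did the opposite. Among 37 male-biased genes, 9 were called lower and 2 higher (29.7% called, median -0.58). Among 24 female-biased genes, 7 were called higher and none lower (29.2% called, median 0.73). Of all genes, 6.96% were called. Without both replicates 4 the female-biased counts were 12 higher and 2 lower. The female-biased list holds Cyp4a14 and Acot3, which stand on the PPARα or peroxisome lists too. Hsd3b5, a steroid dehydrogenase of male liver (chr3:98618634-98630252), fell to 8.38, 4.13, 3.78 and 0.898 CPM at 6 mg/kg, against 38.0, 29.7, 22.9 and 7.90 CPM at 3 mg/kg. In each group 1 library met the other group's range, at 8.38 CPM for 6 mg/kg replicate 1 and 7.90 CPM for 3 mg/kg replicate 4, and the log2 difference was -2.53 (SE 0.43, adjusted p = 0.00329). Socs2, which growth hormone induces through STAT5, fell to 10.5, 4.01, 4.13 and 3.09 CPM at 6 mg/kg, against 38.2, 35.1, 28.5 and 13.03 CPM at 3 mg/kg (-2.40, SE 0.47, adjusted p = 0.00804), with no overlap. Cyp4a12b, a male-biased omega-hydroxylase, went the other way at 0.80 (SE 0.19, adjusted p = 0.016). For the major urinary proteins, which are among the most abundant male liver transcripts, all 13 genes tested had a negative difference (median -0.95), but only 1 was called, Mup3 (-0.76, SE 0.22, adjusted p = 0.0376), whose call ended without any one of 3 mg/kg replicates 1, 2 and 3 or 6 mg/kg replicates 2, 3 and 4 (adjusted p between 0.0646 and 0.115). Mup probes may share reads, since the genes are near-identical.

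Zonal and metabolic genes of hepatocytes fell in small numbers, where 3.19% of all genes fell and 3.77% rose. Of 16 pericentral genes, 4 fell and none rose, including the glutamate transporter Slc1a2, which read 7.54, 6.20, 5.67 and 6.29 CPM at 6 mg/kg and 16.6, 19.5, 10.7 and 8.37 CPM at 3 mg/kg, without overlap (-1.10, SE 0.23, adjusted p = 0.00805). Of 11 periportal genes, 2 fell, Gls2, the liver glutaminase (-0.85, SE 0.15, adjusted p = 0.00233; 2 other probes of it gave -0.05 and 0.19 and were not called), and Hal, histidase (-0.64, SE 0.12, adjusted p = 0.00428). In amino acid metabolism 3 of 46 fell and 2 rose, and the fallers included Prodh, proline oxidase (-0.83, SE 0.16, adjusted p = 0.00425). Without both replicates 4, 10 rose and 4 fell. The other Prodh probes gave -0.68 and -0.50 and were not called. Cebpa, the transcription factor that keeps hepatocytes differentiated, fell to 389, 336, 345 and 372 CPM at 6 mg/kg, against 897, 781, 552 and 649 CPM at 3 mg/kg, with no overlap and a log2 difference of -0.997 (SE 0.16, adjusted p = 0.00126). Aox3, an aldehyde oxidase, fell by 1.59 (SE 0.27, adjusted p = 0.00239) on the log2 scale. Of the clock genes, 3 of 15 fell and 1 rose, and the fallers included Nr1d2, a repressor of the core loop, which read 18.6, 10.3, 6.97 and 11.9 CPM at 6 mg/kg and 29.4, 31.7, 21.6 and 37.7 CPM at 3 mg/kg (-1.34, SE 0.24, adjusted p = 0.00329). The hour of killing is not given in the sources used here.

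Genes of the interferon response and markers of other liver cells were also looked at. Of 38 interferon-response genes, 8 fell and none rose (3.19% of all genes fell), with a median of -0.31 and 2 called in all 12 fits, Ifi27 (-1.08, SE 0.22, adjusted p = 0.00677; a second probe gave 0.48 and was not called) and the immunoproteasome subunit Psmb9 (-1.12, SE 0.24, adjusted p = 0.00952). Psmb9 read 9.94, 6.68, 5.19 and 8.48 CPM at 6 mg/kg and 19.5, 16.1, 15.6 and 15.03 CPM at 3 mg/kg, with no overlap, while the 3 mg/kg livers lay within the control range of 11.1 to 21.8 CPM. Markers of lymphocytes summed to 10.1 to 17.96 CPM at 6 mg/kg, 16.1 to 18.4 CPM at 3 mg/kg and 14.1 to 27.9 CPM in controls, and 11 of their 19 markers, among them Cd3e, Cd4 and Cd8a, averaged under 3 counts. Markers of Kupffer cells, the macrophages of the liver, summed to 259.7 to 457 CPM at 6 mg/kg and 374 to 462 CPM at 3 mg/kg, and 1 of 16 fell, C1qb (-0.79, SE 0.21, adjusted p = 0.0297), a call that 6 of the 12 left-out libraries ended and that a second C1qb probe (-0.03) did not share. Their part in the interferon result was not tested. Markers of neutrophils summed to 36.9 to 62.4 CPM at 6 mg/kg, 19.4 to 43.8 CPM at 3 mg/kg and 7.13 to 12.3 CPM in controls, most of it from S100a8, while the granule genes Mpo, Elane, Ngp, Camp and Ltf averaged under 3 counts. S100a8 read 47.4, 57.5, 49.2 and 32.8 CPM at 6 mg/kg and 17.1, 36.6, 36.0 and 16.5 CPM at 3 mg/kg and was not called (0.82, SE 0.35, adjusted p = 0.162).

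Endothelial markers gave 1 faller of 22 (4.55% called, against 6.96% of all genes), the growth factor Bmp2, which signals iron status to hepatocytes. It read 28.1, 19.8, 19.8 and 14.3 CPM at 6 mg/kg and 36.4, 32.6, 35.5 and 41.01 CPM at 3 mg/kg, with no overlap (-0.83, SE 0.18, adjusted p = 0.00953), while the summed endothelial markers were 501 to 606 CPM at 6 mg/kg and 496 to 583 CPM at 3 mg/kg. Of 24 stellate and matrix genes 2 rose and 1 fell (12.5% called). The risers, Col1a1 and Vim, were not called without 6 mg/kg replicate 4, at 0.85, adjusted p = 0.15, and at 0.52, adjusted p = 0.0824, but were called without both replicates 4, at 0.98, adjusted p = 0.0497, and at 0.56, adjusted p = 0.0288. Another 2 Vim probes gave 1.12 (adjusted p = 0.0043) and 0.85 (adjusted p = 0.108), and another Col1a1 probe gave 1.43 (adjusted p = 0.0636). With the probes of highest count, the calls also ended for both genes without 3 mg/kg replicate 1 (2.02, adjusted p = 0.0755, and 0.83, adjusted p = 0.0854) and for Col1a1 without 3 mg/kg replicates 2 (2.01, adjusted p = 0.0697) or 3 (1.78, adjusted p = 0.0648). Tgm2, a transglutaminase, had its highest level in 6 mg/kg replicate 4. It read 23.5, 41.8, 40.3 and 284 CPM at 6 mg/kg and 12.1, 13.2, 10.0 and 12.7 CPM at 3 mg/kg (3.02, SE 0.53, adjusted p = 0.00432). The groups did not overlap, and without 6 mg/kg replicate 4 the difference was 1.52 (adjusted p = 0.000362). Tfrc, the transferrin receptor and a marker of erythroid cells that hepatocytes also make, rose by 1.15 (SE 0.24, adjusted p = 0.00904). Erythroid markers with Tfrc summed to 224 to 363 CPM at 6 mg/kg and 121 to 188 CPM at 3 mg/kg, and the erythroid markers Slc4a1 and Hemgn averaged under 3 counts.

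Pctp, which carries phosphatidylcholine between membranes and is on no list used here, rose to 37.2, 66.4, 75.3 and 43.7 CPM at 6 mg/kg, against 11.7, 13.3, 23.3 and 15.03 CPM at 3 mg/kg, without overlap (1.82, SE 0.28, adjusted p = 0.00105). The other genes given here by the naming rule were called with all libraries but lost the call when single libraries were left out, in each case including 3 mg/kg replicate 1 unless said otherwise. In sugar metabolism the branching enzyme Gbe1 was called at 0.49 (SE 0.13, adjusted p = 0.0272), while the glucose transporter Slc2a2 was called at -0.52 (SE 0.15, adjusted p = 0.0419) with a second probe at 0.52. Among amino acid enzymes Tat, the tyrosine aminotransferase, was called at 1.54 (SE 0.35, adjusted p = 0.0124) and Asl, of the urea cycle, at 0.64 (SE 0.17, adjusted p = 0.0276). A second Asl probe was called at 1.30 (adjusted p = 0.00428). Among bile acid genes the reductase Akr1d1 was called at 0.66 (SE 0.19, adjusted p = 0.0374), the dehydrogenase Hsd3b7 at -0.55 (SE 0.14, adjusted p = 0.0267) and the uptake carrier Slco1b2 at -0.79 (SE 0.22, adjusted p = 0.0356).

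Regulators with such calls were Nfe2l2 (0.71, SE 0.21, adjusted p = 0.0491), the gene of NRF2, the immediate-early gene Ier5 (1.39, SE 0.33, adjusted p = 0.0164), the clock output gene Dbp (-2.43, SE 0.66, adjusted p = 0.0394), the interferon regulator Irf1 (-0.47, SE 0.14, adjusted p = 0.0481), the Wnt antagonist Notum (-0.99, SE 0.27, adjusted p = 0.028) and the stellate factor Hand2 (-0.79, SE 0.20, adjusted p = 0.0223). Without 6 mg/kg replicate 4 the difference of Ier5 was 0.94, adjusted p = 0.0797. A second Irf1 probe was called at -0.95 (adjusted p = 0.00331), while another Nfe2l2 probe (1.02) and other Dbp probes (-1.60 and -2.20) were not called. Uhrf1, which keeps DNA methylation through replication, was called at 1.81 (SE 0.44, adjusted p = 0.0163), the chaperonin subunit Cct3 at 0.80 (SE 0.20, adjusted p = 0.0197) and the proteasome subunit Psmd4 at 1.22 (SE 0.28, adjusted p = 0.013). The secreted thyroxine carrier Serpina7 was called at 1.19 (SE 0.32, adjusted p = 0.0321). The male-biased pseudogene Serpina4-ps1 was called at -2.63 (SE 0.57, adjusted p = 0.0146), the omega-hydroxylase Cyp4a12a at 0.62 (SE 0.19, adjusted p = 0.0486), the mitochondrial dehydrogenase Acadsb at -0.65 (SE 0.15, adjusted p = 0.0151), the peroxisomal Pex26 at -0.71 (SE 0.18, adjusted p = 0.0248) and the respiratory subunit Cox6c at -1.28 (SE 0.37, adjusted p = 0.0461). The deadenylase Cnot7 and the predicted gene Gm21833 were called at -1.42 (SE 0.38, adjusted p = 0.0357) and -1.37 (SE 0.37, adjusted p = 0.0353). Of the ribosomal genes Rplp2 was called at 0.55 (SE 0.16, adjusted p = 0.0382) and Rps14 at 2.11 (SE 0.49, adjusted p = 0.013), the second ending only without 6 mg/kg replicate 4 (1.40, adjusted p = 0.0706). Fgf21, a liver hormone under PPARα, had 0 to 0.359 CPM at 6 mg/kg and 0.381 to 0.85 CPM at 3 mg/kg, near the level of 3 counts, and was not called (-1.86, SE 0.90, adjusted p = 0.169). Markers of exocrine pancreas, of which 10 of the 12 on the platform averaged under 3 counts, summed to 5.15 to 7.05 CPM at 6 mg/kg and 3.06 to 4.50 CPM at 3 mg/kg. Their sum in controls, 4.09 to 7.42 CPM, overlapped both doses. Among them Pnliprp1 was called at 2.08 (SE 0.47, adjusted p = 0.0107) and Cela1 at -1.31 (SE 0.39, adjusted p = 0.0423).

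To ask how many responses had levelled off, responders were taken as genes whose mean of 3 and 6 mg/kg differed from control. With equal group sizes the error of this contrast is close to independent of that of the difference between the top doses. A further change at 6 mg/kg nevertheless also moves the mean, so genes that grow are easier to choose than genes that turn back. There were 595 responders that were higher than control (5.89% of the genes tested) and 481 that were lower (4.76%). Of the higher ones 218 kept rising, 1 turned back and 44 were bounded, meaning that they were not called and that the 95% interval of their difference lay within 1.5-fold either way. The other 332 stayed undecided, neither called nor bounded. Of the lower ones 130 kept falling, none turned back, 72 were bounded and 279 were undecided. The estimates of responders chosen in this way leaned toward growth, since 566 of the 595 and 432 of the 481 had a difference in the direction of the response. Over probes, 463 kept changing and 1 turned back with this choice. With responders chosen by 3 mg/kg against control, 82 kept changing and 2 turned back, and with those chosen by 6 mg/kg against control, 811 and 0 did. Over the higher responders the median log2 difference was 0.68 from 3 to 6 mg/kg and 0.71 from control to 3 mg/kg, and over the lower ones it was -0.47 and -0.50, so the median second step was about as long as the first on the log2 scale. Both steps share the 3 mg/kg libraries, and both enter the contrast by which the responders were chosen. The 2 medians therefore describe the chosen genes and are no test of the steps.

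The split into growing and bounded responders moved with single libraries, counted here over probes. With all libraries 463 responding probes kept changing, against 195 without 3 mg/kg replicate 1, 235 without 3 mg/kg replicate 2, 1052 without 3 mg/kg replicate 4 and 279 without 6 mg/kg replicate 2. Bounded probes numbered 146, against 59, 66, 81 and 66 without control replicates 1, 2, 3 and 4, 95 without 3 mg/kg replicate 3, and 88, 78 and 79 without 6 mg/kg replicates 1, 2 and 3. Controls were in plate row A and both top doses in row B. With plate row in the model 17 probes responded upward and 1 downward, where without it 875 (6.2%) and 629 (4.45%) did, together 10.7%. Only the 0.3 mg/kg group had libraries in both rows, with its replicate 4 alone in row B. The row term therefore rests on that library, and this fit cannot tell plate row from dose.

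**Figure D4:**
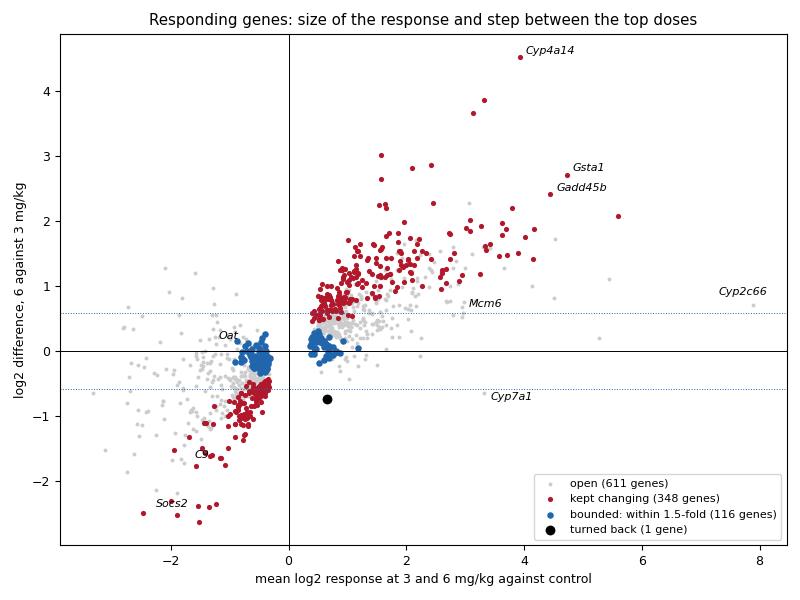
Each point is a responding gene, with its mean log2 response at 3 and 6 mg/kg against control on the horizontal axis and its log2 difference of 6 against 3 mg/kg on the vertical axis; dotted lines mark 1.5-fold. Red genes kept changing (348), blue genes were bounded within 1.5-fold (116), grey genes were undecided (611) and the black gene turned back. Bounded genes lie between the dotted lines at responses of at most 1.17 on the log2 scale.

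Bounded genes had small responses, and none of the 16 named by the largest response exceeded Hmgb2, a chromatin protein, at 1.17 on the log2 scale. Oat, ornithine aminotransferase (chr7:132557478-132576398), was nearly level between the top doses. It read 105, 110.00, 112 and 100.5 CPM at 6 mg/kg, against 119, 116, 99.9 and 98.0 CPM at 3 mg/kg and 164 to 202 CPM in controls. The 6 mg/kg range lay inside the 3 mg/kg range, both below every control, with a log2 difference of -0.02 (SE 0.13, interval -0.29 to 0.26). Pgrmc1, a heme-binding partner of P450 enzymes, did the same upward, with 3338, 4314, 4769 and 4043 CPM at 6 mg/kg, 3369, 4132, 3979 and 4185 CPM at 3 mg/kg and 2199 to 2715 CPM in controls, and a difference of 0.07 (interval -0.29 to 0.44). A second Pgrmc1 probe gave 0.39 with an interval of 0.08 to 0.70, which is not bounded. Oat and Pgrmc1 stayed bounded without each of the 12 libraries in turn. Hmgb2, at 0.04 (interval -0.40 to 0.48), was not bounded without 3 mg/kg replicate 3 (0.14, adjusted p = 0.778), nor was Mat2a, which makes the methyl donor of the cell, at -0.06 (-0.18, adjusted p = 0.642); another 2 Mat2a probes gave 0.44 and 1.02 and were not called. Sult1d1, a sulfotransferase, at 0.09, was not bounded without 3 mg/kg replicate 2 (0.19, adjusted p = 0.662), and Gpc4, a cell-surface proteoglycan, at -0.11, not without 6 mg/kg replicate 4 (-0.28, adjusted p = 0.335). The other 10, Abhd5, Ammecr1l, Arpp19 and C6 upward and Arpc4, Calu, Fbxo9, Phf5a, Prpf38b and Shc1 downward, lost their bound without 2 or more of the libraries. C6 lost it in 11 of the 12 fits, and Ammecr1l was called higher at 6 mg/kg without 3 mg/kg replicate 4 (0.45, adjusted p = 0.0379). Several of the 10 read differently in 3 mg/kg replicate 4 than in the other 3, as C6 did with 179.6, 175, 167 and 351 CPM at 3 mg/kg. Their other probes did not all share the bound. Another Shc1 probe was called higher at 6 mg/kg (1.02, adjusted p = 0.0376), with further ones at 0.33 and 0.10. A second Abhd5 probe responded downward, at -1.44 (adjusted p = 0.00364). Other Arpp19 probes gave 0.46 and 0.40, the latter with an interval of 0.05 to 0.75. Those of Calu (0.22 and 0.03) and Fbxo9 (0.16) were not called.

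**Figure D5:**
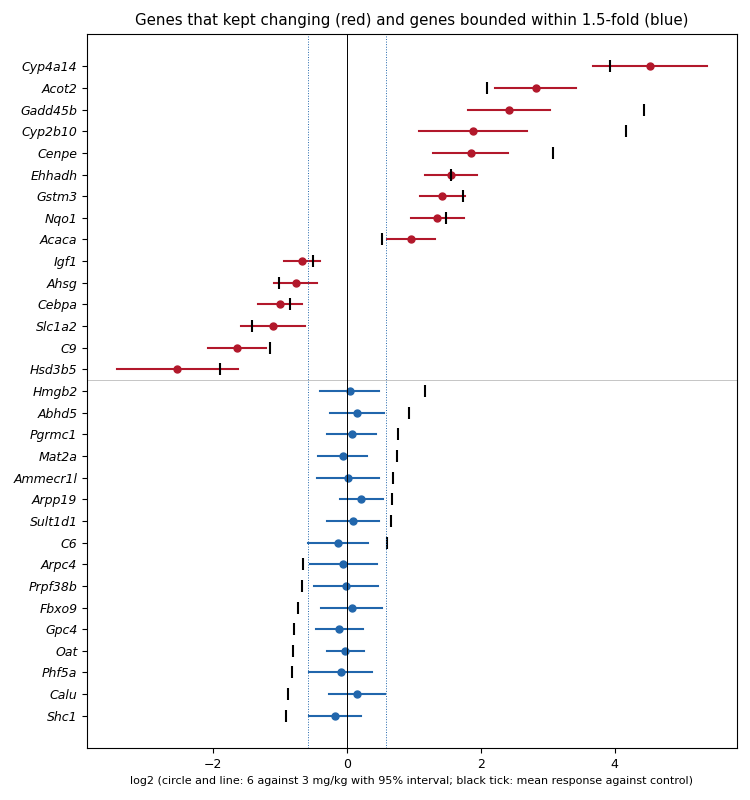
Log2 difference of 6 against 3 mg/kg (circle) with its 95% interval (line) and mean log2 response against control (black tick) for 15 genes that kept changing (red) and the 16 named bounded genes (blue). Dotted lines mark 1.5-fold; the red intervals leave out 0, and the blue ones lie between the dotted lines while their responses lie outside.

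A direct test set the second step of the dose against the first, both 3 mg/kg long, on the log2 scale. It called 1 of 14122 probes (0.00708%), although 1320 had an unadjusted p under 0.05. The probe was that of Cyp2c66, a P450 (chr19:39113898-39187072), which read 147, 167, 172 and 107 CPM at 6 mg/kg and 58.8, 95.8, 125 and 81.4 CPM at 3 mg/kg, while the controls held 1 to 6 counts (0.108 to 0.84 CPM). On the log2 scale, against these scarce controls, most of the response was present at 3 mg/kg. That does not show a plateau in CPM, since the difference of the top doses was not bounded within 1.5-fold. The top doses overlapped, and their difference of 0.71 (SE 0.34, adjusted p = 0.218) was not called. The second step less the first was -6.83 on the log2 scale (SE 0.79, adjusted p = 9.4e-05), a value that depends on the few counts of the controls. DESeq2 called 2 probes upward and 5 downward in this test and limma-voom 0 and 1. Without both replicates 4 edgeR called 1 and 9, among them C9 (-2.31, adjusted p = 0.0308), Aox3 (-2.41, adjusted p = 0.0207) and Hsd3b5 (-2.14, adjusted p = 0.0170), whose falls came mostly above 3 mg/kg, and S100a8 (-3.48, adjusted p = 0.0389), whose rise came mostly below it. With plate row in the model none was called.

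The only responder that turned back was Brwd1, a bromodomain protein, named here after its values were seen. It read 16.4, 14.2, 16.2 and 12.97 CPM at 6 mg/kg, against 23.2, 22.4, 24.3 and 29.8 CPM at 3 mg/kg and 10.8 to 13.2 CPM in controls. All livers at 3 mg/kg were above both other groups, and the difference of the top doses was -0.74 (SE 0.20, adjusted p = 0.0273), whereas a second Brwd1 probe gave -0.09 (adjusted p = 0.888). Its call as turned back ended without 3 mg/kg replicates 1 or 2, 6 mg/kg replicates 2, 3 or 4, or control replicate 3, each of which left 0 probes turned back. Its adjusted p for 6 against 3 mg/kg was 0.0506 to 0.0707 in the 5 of these fits that left out a dosed library.

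Genes called between the top doses were not all responders. Among the 381 risers 163 did not pass the test of the mean response, and among the 322 fallers 191 did not. Acat2, Apoa4 and Crp rose at 6 mg/kg while their 3 mg/kg level differed from control by -0.17, 0.01 and -0.05 on the log2 scale. Bmp2, Ifi27, Psmb9 and Nr1d2 fell at 6 mg/kg from a 3 mg/kg level that differed from control by 0.12, 0.32, 0.08 and 0.29. None of these steps from control to 3 mg/kg was called.

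Genes with several probes allowed a check within the same libraries. Of the 323 called higher probes that had another tested probe of the same gene, 144 had one that was also called higher, and 90.6% of the other probes had the same sign. Of 203 called lower probes, 44 had such a match and 80.1% of the other probes had the same sign. These counts are per probe, so called probes of the same gene count as each other's match. The same shares over all genes with several probes were not worked out.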

How the data were processed

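TempO-Seq counts per probe were deposited by the authors as 1 table for the 20 libraries, whole reads without normalization, from separate mice per the labels. Bowtie and GRCm38.p5 are named in the submitters' processing notes, and the sources used here give no other upstream setting. The members, gene lists and tests were chosen with earlier results of these data known. Counts were fitted with edgeR 4.0.16 in R 4.3.3 (TMM factors, filterByExpr by group, robust quasi-likelihood, 1 mean per dose group over all 20 libraries), with Benjamini-Hochberg adjustment over the 14122 of 30146 probes that passed the filter. Standard errors and 95% intervals come from the same fit. Groups were taken from the labels, and replicate numbers follow accession order. A responder differed from control in the mean of 3 and 6 mg/kg; it kept changing if called between 3 and 6 mg/kg in the same direction, turned back if called in the other, and was bounded if not called with an interval within 1.5-fold. The test of the dose steps took 6 mg/kg minus 3 mg/kg less 3 mg/kg minus control.

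A gene is represented by its probe of highest mean count. Named genes were the 10 largest differences per direction among called genes of at least 20 CPM without overlap, the 8 bounded responders per direction with the largest responses at that level, genes that turned back, the strongest differences of the dose steps, up to 2 called members per list and direction by smallest p, and a fixed set of marker genes; a few of them are not reported here. Alternatives were other scalings and count filters, DESeq2 1.42.0, limma-voom (limma 3.58.1), summed probes, other sets of libraries, plate row or column as a covariate, other choices of responders and margins, and each of 12 libraries left out. The scripts were tested on simulated data. Gene positions are from GENCODE M21 on GRCm38 and promoter sequences from RefSeq on GRCm38.p6. Counting error alone sets the floor of 3 counts, and PCR reads are not independent molecules.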

Additional observations from a re-analysis of the deposited data

Results flagged for a closer look

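In each dose group of 4, the highest or lowest library was looked at for a gap from the rest beyond Dixon's 95% critical value. Of 268 such groups, 28 had a library set apart, and chance alone sets apart about 1 in 20 groups. Of the 28, 13 were 6 mg/kg replicate 4 and 7 were 3 mg/kg replicate 4, the libraries whose mean correlation with their group was also set apart, at 0.949 and 0.892.

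In 6 mg/kg replicate 4 the level lay above the other 3 livers for Cyp2b10 at 3980.2 CPM, Cyp2c55 at 1699 CPM, Ugt2b34 at 1686 CPM, Acat2 at 557 CPM and Gbe1 at 476 CPM. It also did so for Tgm2 at 284 CPM, Vim at 53.3 CPM and Col1a1 at 34.1 CPM. It lay below the others for Itih3 at 472 CPM, Arpp19 at 265 CPM, Slco1b2 at 233 CPM and Sult1d1 at 76.6 CPM. In 3 mg/kg replicate 4 it lay above the others for C6 at 351 CPM, Cyp7a1 at 348 CPM, Mat2a at 99.7 CPM, Ammecr1l at 66.9 CPM and Fasn at 35.0 CPM, and below them for C1qb at 28.5 CPM.

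In 6 mg/kg replicate 1, Ang at 776 CPM, Gm10681 at 428 CPM, Serpina4-ps1 at 24.9 CPM and Socs2 at 10.5 CPM lay above the other livers of the dose. All 4 of these genes had negative differences of 6 against 3 mg/kg. In the same library Ehhadh at 1063 CPM and Ugdh at 861 CPM lay below the others, and both had positive differences. In 3 mg/kg replicate 3, Elovl6 stood above the others at 45.7 CPM and Col1a1 below them at 1.87 CPM.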

How the results depend on the processing

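Of 99 named genes called between the top doses, all kept their direction in every alternative run, and 3 (Acot2, Cyp4a14 and Gadd45b) kept their call in every one. Counts in this paragraph are of probes. With 1 library left out at a time, 190 to 1662 were called higher and 112 to 1443 lower, 580 to 1048 responded upward and 322 to 846 downward, 195 to 1052 kept changing, 0 to 2 turned back, 59 to 209 were bounded, and 0 and 1 to 2 differed upward and downward between the dose steps. Total counts alone gave 199 lower, 0 turned back and 84 bounded, and moved the median of all probes to 0.14 and the share of higher calls to 77.1%, against 58.8% in the main analysis. Without a count filter there were 243 lower, 2 lower between the steps and 68 bounded. The 12 libraries of control, 3 and 6 mg/kg gave 203 higher, 135 lower, 536 and 229 responders, 177 that kept changing and 43 bounded. Plate column as a covariate gave 57 higher, 18 lower, 439 and 249 responders, 61 that kept changing, 0 turned back and 41 bounded. Plate row, a term that rested on 0.3 mg/kg replicate 4, gave 17 and 1 responders, 17 that kept changing, 0 turned back, 0 bounded and 0 lower between the steps. The 8 libraries alone gave 10 higher and 1 lower. DESeq2 gave 688 lower, and 2 higher and 5 lower between the steps. Bounded probes numbered 489 with a 2-fold margin and 6 with a stricter one. With responders chosen by 3 mg/kg against control, 82 kept changing, 2 turned back and 14 were bounded, and with those chosen by 6 mg/kg against control, 811 kept changing and 0 turned back. The cause of these shifts was not tested.

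Without both replicates 4 there were 1279 higher, 1199 lower, 1160 downward responders, 1 and 9 between the steps, 1135 that kept changing, 2 turned back and 323 bounded. In genes, the same setting gave 13 higher and 1 lower for fatty acid synthesis, 12 higher for the proteasome, 8 for heat shock, 10 for amino acids, 5 for male-biased, 12 higher and 2 lower for female-biased, and 4 higher and 8 lower for plasma proteins. It gave 1 higher for interferon and pericentral genes, 1 higher and 2 lower for Kupffer cells and 3 higher and 2 lower for endothelium. Lower were 2 CAR and PXR targets, 2 PPARα targets, 1 cholesterol gene, 3 of mitochondrial oxidation, 5 peroxisomal, 16 of complement, 5 acute-phase, 4 major urinary protein and 6 stellate genes. Named genes whose sign turned were not called with all libraries, and with 1 library left out they ranged over -0.52 to 0.31 (Cyp3a11), -0.17 to 0.38 (Cpt1a) and -1.10 to 1.94 (Cyp7a1). Cyp3a11 turned to 0.0397 with total counts, 0.0818 with summed probes, 0.43 with limma-voom, 0.31 without 3 mg/kg replicate 3 and 0.06 without 6 mg/kg replicate 4. Cpt1a turned to -0.33 with plate column and to -0.06, -0.17 and -0.16 without 3 mg/kg replicates 1 and 2 and 6 mg/kg replicate 4. Cyp7a1 turned to 1.95 without both replicates 4, 0.60 with limma-voom and 1.94 without 3 mg/kg replicate 4. No paired analysis was possible because the libraries came from separate mice, each given 1 dose. Depth limits genes near 3 counts, such as Fgf21.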
